A study of Mus musculus with 12 samples.

Results

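Complement is a set of blood and tissue proteins that tag particles for uptake, call in leukocytes and, at the end of the cascade, perforate membranes. The genes described here were 33 components, regulators and receptors of that system in the mouse abdominal aorta, chosen by symbol as the members of each branch of the cascade, out of 55092 rows of the expression table. All 33 were found in the table. Of these, 28 passed the filter on low values, which asked for at least 1 FPKM in at least 3 of the 12 libraries, and were tested among 14676 rows. FPKM is the number of fragments of a gene per kilobase of its exons, scaled to the size of the library. The filter was passed only through the CCN2-deleted Ang II group by 4 genes, C6, Cfb, Cfi and C5ar2, so that for them a higher value in that group was in part fixed by the filter. The 5 genes that did not pass were Hc, Cd46, Masp1, Fcnb and Vsig4.

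The aortas came from 12 male mice in 4 groups of 3. All mice carried floxed alleles of CCN2, which encodes a matricellular protein, and received 5 doses of tamoxifen at 8 weeks of age followed by a washout of 2 weeks. CCN2fl/fl mice had no Cre, and CCN2SMCΔ mice carried Myh11-Cre-ERT2, which deletes the gene in smooth muscle cells and leaves it in the other cells of the wall. Mini-osmotic pumps then delivered saline or angiotensin II (Ang II), a peptide hormone that constricts vessels, at 500 ng/kg/min, and tissue was taken at 7 days. The groups are CFS (CCN2fl/fl, saline), CSS (CCN2SMCΔ, saline), CFA (CCN2fl/fl, Ang II) and CSA (CCN2SMCΔ, Ang II), and a mouse is named by its group and number. Each mouse gave 1 library, and p-values measure the spread between mice.

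The libraries held between 14555508 and 23102755 fragments in genes, with the lowest number in CSA03. Ccn2 stood at 710, 1108 and 480 FPKM in CFS, at 436, 640 and 587 in CSS, at 1013, 1105 and 564 in CFA and at 255, 331 and 399 in CSA, so that the genotypes were apart under Ang II and overlapped under saline. CSA03 stood apart from its group: its root mean square distance to the other two CSA libraries was up to 1.21 on the log2 scale, where CSA01 and CSA02 were 0.505 apart. Results that rest on it are given with and without it. Smooth muscle markers, among them Myh11 and Acta2, were present in every library as an aorta should have them, with a summed level of 5226 to 9926 FPKM outside CSA and of 780 to 916 FPKM in CSA, and 6 of 6 were called lower in CSA against CFA.

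The cascade starts along separate routes. In the classical pathway C1q binds its targets and activates the proteases C1r and C1s, which cleave C4 and C2. In the lectin pathway collectins and ficolins bind sugars and work through MASP proteases, and the alternative pathway amplifies deposited C3b with factors B and D and properdin. All routes meet at C3, whose fragments are read by receptors on leukocytes, and lead through C5 to the membrane attack complex, while soluble and membrane-bound regulators hold the cascade in check. The liver makes most of the circulating proteins, C1q comes mainly from macrophages, and fibroblasts, fat and endothelium make part of the rest locally.

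The 5 promoters below are shown because their genes carry the changes that follow: a pair of C1q chains, C3, the receptor C5ar1 and C7, the terminal component that fell. Each is the 250 bases before the RefSeq gene start on the gene's own strand, on GRCm38.p6. The windows are chr4:136886201-136886450 for C1qb, chr4:136892915-136893164 for C1qc, chr17:57228137-57228386 for C3, chr7:16259339-16259588 for C5ar1 and chr15:5063774-5064023 for C7, all on the minus strand. Capitals mark matches to 5 short motifs searched on both strands: GAGGAA, the core read by the myeloid factor PU.1, TTCNNNGAA of STAT factors, GAAANNGAA of interferon regulatory factors, GGGANTTTC of NF-kB and TTGCNNAA of C/EBP factors. The gene model behind the gene positions given below reaches past the RefSeq start, to 136893065 for C1qc and 16259540 for C5ar1. Part of each of these windows thus lies inside that model, with the capitals of C5ar1 but not those of C1qc.
C1qb: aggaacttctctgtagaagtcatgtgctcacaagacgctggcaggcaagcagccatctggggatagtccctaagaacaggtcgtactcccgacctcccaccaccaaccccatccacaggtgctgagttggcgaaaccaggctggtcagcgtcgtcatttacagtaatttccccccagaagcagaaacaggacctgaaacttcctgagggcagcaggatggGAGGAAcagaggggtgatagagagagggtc
C1qc: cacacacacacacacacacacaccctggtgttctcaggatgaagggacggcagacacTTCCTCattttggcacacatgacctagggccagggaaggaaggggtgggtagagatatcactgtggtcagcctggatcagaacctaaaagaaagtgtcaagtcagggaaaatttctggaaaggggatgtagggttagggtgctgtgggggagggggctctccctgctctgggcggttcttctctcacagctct
C3: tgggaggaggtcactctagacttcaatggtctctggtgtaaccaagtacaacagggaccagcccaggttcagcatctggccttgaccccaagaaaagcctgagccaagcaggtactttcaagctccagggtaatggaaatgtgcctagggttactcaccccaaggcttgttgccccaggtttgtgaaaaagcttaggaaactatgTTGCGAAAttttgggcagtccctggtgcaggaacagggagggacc
C5ar1: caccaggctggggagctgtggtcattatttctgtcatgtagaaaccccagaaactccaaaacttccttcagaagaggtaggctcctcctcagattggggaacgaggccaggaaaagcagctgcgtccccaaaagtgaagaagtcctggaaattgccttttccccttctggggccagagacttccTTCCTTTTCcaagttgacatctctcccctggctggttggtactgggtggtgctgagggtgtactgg
C7: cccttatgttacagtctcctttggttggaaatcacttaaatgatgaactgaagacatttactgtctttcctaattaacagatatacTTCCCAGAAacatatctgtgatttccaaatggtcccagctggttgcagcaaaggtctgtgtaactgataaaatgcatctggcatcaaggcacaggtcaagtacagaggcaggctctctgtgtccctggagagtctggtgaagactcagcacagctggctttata

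The table held promoters of 300 bases, the last 50 of them after the start, for 23 of the 33 genes, 26 promoters in all. GAGGAA was in 8 of them (30.8%) and in 28.3% of all 32851 promoters. GAAANNGAA was in 5 (19.2%) against 8.56% of all, TTGCNNAA in 5 (19.2%) against 10.8%, and TTCNNNGAA in 3 (11.5%) against 8.30%. GGGANTTTC was in 0, against 1.11% of all. TTCNNNGAA reads the same on both strands, and no motif contains another. A match is a run of letters in this window and not a measured binding site.

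With CCN2 deletion under Ang II (CSA against CFA), the C1q chains, the receptors C3ar1, C5ar1 and C5ar2, properdin, factor B and factor I rose, while C7 and Colec11 fell. In all, 9 of the 28 tested genes (32.1%) were called higher, where 8.95% of all tested genes were, and 2 (7.14%) were called lower, a share close to the 8.27% of all tested genes. The members were chosen with earlier results of these data known, so these shares only describe the list. A call needed an adjusted p (limma, Benjamini-Hochberg over all tested genes) under 0.05 and an absolute log2 fold change above 1.5. Of the 24 genes that did not owe the filter to CSA, 6 were called higher and 2 lower. Without the fold limit 15 were higher and 5 lower, beside 19.5% and 21.2% of all tested genes. The 3 CSA mice did not overlap the 3 CFA mice in 13 tested genes that were higher and 6 that were lower, beside 23.4% and 25.1% of all tested genes. The median log2 fold change was 0.56 over the 28 genes and -0.04 over all tested genes. These are levels in whole tissue, in which more cells of a type and more RNA per cell cannot be told apart.

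**Figure D1:**
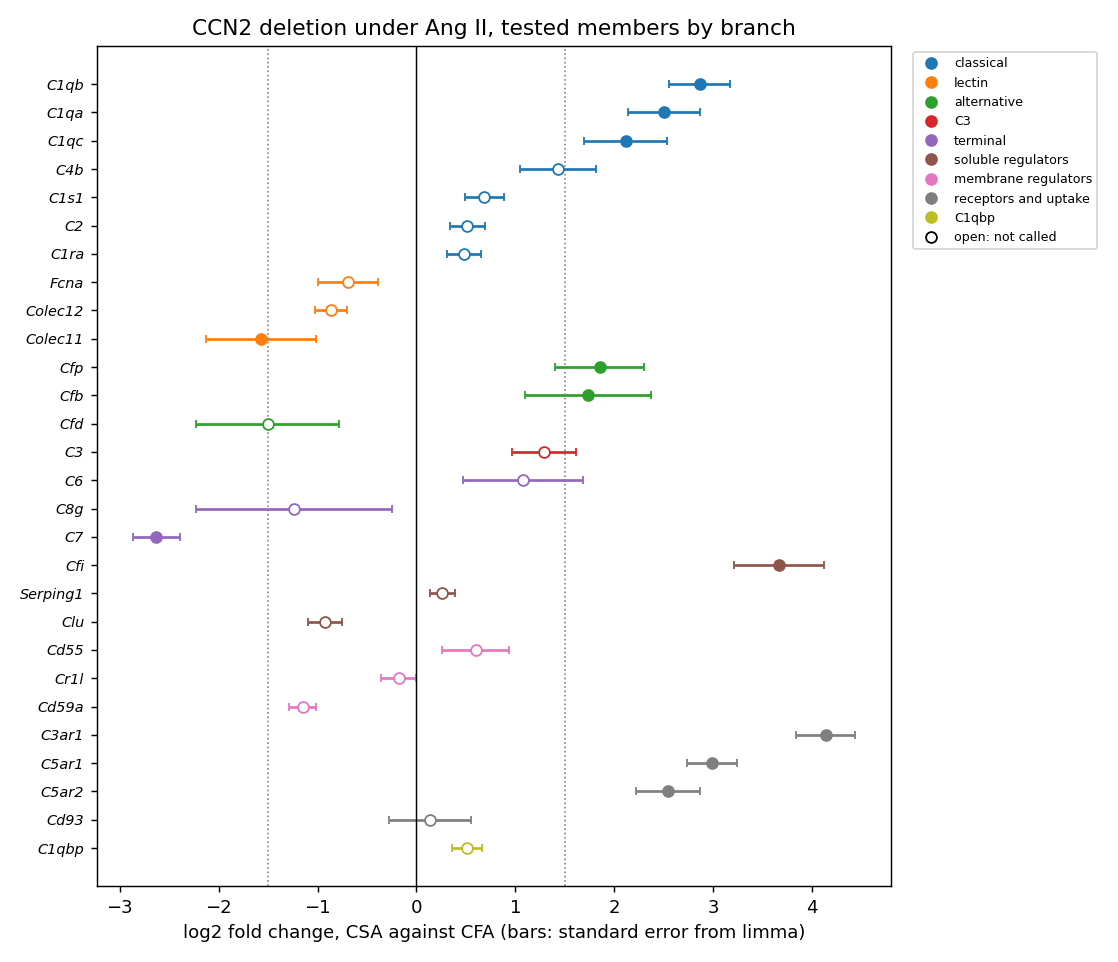
Log2 fold change (log2(FPKM + 0.1) scale) of CSA against CFA for the 28 tested complement genes, grouped and colored by branch, with limma standard errors as bars, filled points for called genes and dotted lines at the fold limit of 1.5. All 7 classical genes lie to the right of 0 and all 3 tested lectin genes to the left, C3ar1 is farthest right at 4.14 and C7 farthest left at -2.63.

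In the classical pathway 3 of the 7 genes, the C1q chains, were called higher in CSA against CFA. The other 4 were higher at an adjusted p under 0.05 and short of the fold limit. When single mice were left out, the chains kept an adjusted p under 0.05 in all 12 fits, while C1ra was over it in 10 (up to 0.149), C2 in 4 (up to 0.130), and C1s1 (0.0624) and C4b (0.0527) in 1 each, the one without CFA71. C1qa, C1qb and C1qc encode the A, B and C chains of C1q and lie side by side on the minus strand of chromosome 4 (mm10), with C1qa at 136895917 to 136898803, C1qc at 136889804 to 136893065 and C1qb at 136880129 to 136886187. C1qb stood at 56.8, 120 and 45.3 FPKM in CFA71, CFA72 and CFA74 and at 525, 522 and 438 FPKM in CSA01, CSA02 and CSA03. The groups did not overlap, the highest CFA mouse was CFA72, and the ratio of the group means was 6.67. The log2 fold change was 2.86 (SE 0.31), with a limma adjusted p of 3.44e-05.

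C1qa stood at 59.9, 125 and 53.9 FPKM in CFA and at 557, 549 and 241 FPKM in CSA, a log2 fold change of 2.50 (SE 0.37, limma adjusted p = 0.000282). C1qc stood at 26.4, 50.2 and 22.1 FPKM in CFA and at 198, 191 and 63.2 FPKM in CSA, a log2 fold change of 2.11 (SE 0.42, limma adjusted p = 0.00205). Neither chain overlapped between the groups, and C1qc in CSA03 at 63.2 FPKM was close to CFA72 at 50.2 FPKM. Without CSA03 the log2 fold changes were 2.90 for C1qa, 2.95 for C1qb and 2.65 for C1qc, and all 3 stayed called. In saline the chains differed little between the genotypes, with means of 51.8, 49.8 and 25.2 FPKM for C1qa, C1qb and C1qc in CFS and of 61.3, 54.8 and 26.7 FPKM in CSS.

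C1q contains equal numbers of the 3 chains, so the chains were also compared with each other within each mouse. The level of C1qb was 1.82 to 2.73 times that of C1qc in 11 mice and 6.93 times in CSA03. The ratio of C1qa to C1qc was 1.86 to 2.88 in those 11 mice and 3.81 in CSA03. In CSA03 C1qb was thus close to its level in the other CSA mice while C1qc was at 63.2 FPKM beside their 198 and 191 FPKM. Of the lists of cell markers, the macrophage sum was not low in CSA03, at 1613 FPKM beside 1383 and 1426 FPKM in CSA01 and CSA02, and the part of the low depth of CSA03 in its chain ratios was not tested.

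**Figure D2:**
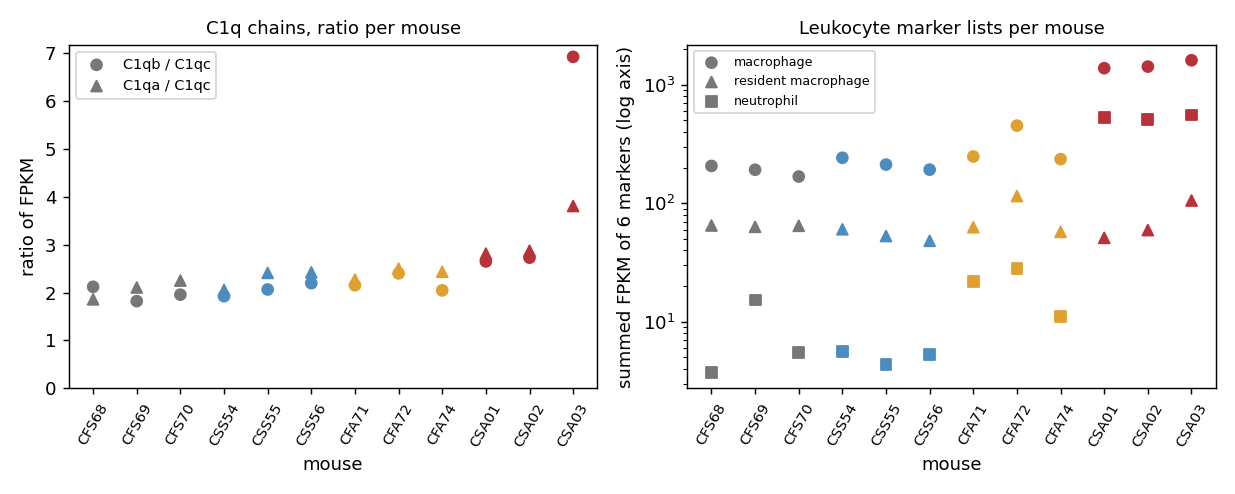
Left, ratio of FPKM of C1qb (circles) and C1qa (triangles) to C1qc in each of the 12 mice, where CSA03 stands at 6.93 and 3.81 and all other ratios are at 2.88 or below. Right, summed FPKM (log axis) of 6 macrophage, 6 resident macrophage and 6 neutrophil markers in the same mice, where the macrophage sum is 1383 to 1613 in CSA and at most 453 elsewhere and the resident macrophage sum overlaps between groups.

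The proteases and substrates of the classical pathway moved less than the chains. C4b, the C4 gene measured here and the source of the covalently bound C4 fragment, stood at 21.9, 43.2 and 27.8 FPKM in CFA and at 113, 88.4 and 51.6 FPKM in CSA. Its groups did not overlap, and its log2 fold change of 1.43 (SE 0.38, limma adjusted p = 0.0120) was just short of the fold limit. It passed that limit without CSA03 (1.74), without CFA72 (1.70), with array weights (1.89) and on column sums (1.51). C4a, its close copy, was between 0.08 and 0.29 FPKM in all mice, and how fragments common to the pair were assigned is not given in the sources used here.

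C1ra and C1s1, the proteases of the C1 complex, had means of 36.8 ± 7.4 and 55.5 ± 8.3 FPKM in CFA and of 51.1 ± 7.5 and 89.5 ± 13.9 FPKM in CSA (SD, n = 3). Their log2 fold changes were 0.48 (SE 0.17, limma adjusted p = 0.0438) and 0.69 (SE 0.19, limma adjusted p = 0.0154). C1ra overlapped between the groups, since CFA74 was above CSA02, and C1s1 did not. C2, which is cleaved next to C4 to form the C3 convertase, was at 4.31 ± 0.95 FPKM in CFA and 6.14 ± 0.61 FPKM in CSA (SD, n = 3), which is 0.52 higher on the log2 scale (SE 0.18, limma adjusted p = 0.0366). Without CSA03 the adjusted p of C1ra was 0.0802, and C2 was over the threshold without CFS68, CFA71, CFA72 or CSA01. The exons of C2 overlap those of the readthrough gene Gm20547 and of Zbtb12 over 46.9% of their length in all, and C1s1 shares 18.4% with Gm16567. Gm20547 and Gm16567 were listed at 0 in all mice and Zbtb12 was at 2.49 to 4.32 FPKM, so the levels of C2 and C1s1 are uncertain.

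C3, the protein on which all routes converge, was abundant in every aorta. It stood at 143, 146 and 231 FPKM in CFS, at 94.6, 117 and 61.1 in CSS, at 76.1, 127 and 147 in CFA and at 293, 207 and 345 in CSA. The CSA mice were above all CFA mice, with a log2 fold change of 1.29 (SE 0.32, limma adjusted p = 0.00810), short of the fold limit. Against CSS the change was 1.65 (SE 0.32, limma adjusted p = 0.00157) and called, and it was under the fold limit without CSS56 (1.39), without CSA03 (1.49) and with array weights (1.45). In saline the order was the other way round: the CSS mice were all below the CFS mice, with a log2 fold change of -0.94 (SE 0.32, unadjusted p = 0.0141, limma adjusted p = 0.614), which did not pass the test.

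In the alternative pathway 2 of the 3 genes, Cfp and Cfb, were called higher, and Cfd was not called. Cfb passed the filter only through CSA, so its call was in part fixed by the filter. Properdin (Cfp), which stabilizes the alternative convertase and is made by myeloid cells, stood at 9.65, 25.5 and 11.1 FPKM in CFA and at 71.3, 78.7 and 23.3 FPKM in CSA. CSA03 was below CFA72, so the groups overlapped. The log2 fold change was 1.85 (SE 0.45, limma adjusted p = 0.00686), rose to 2.41 without CSA03, and lost its call when only CSA and CFA were fitted (limma adjusted p = 0.0524). Factor B (Cfb), which supplies the protease of that convertase, stood at 0.829, 0.917 and 0.635 FPKM in CFA and at 5.65, 5.34 and 0.716 FPKM in CSA.

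CSA03 was thus at the CFA level for Cfb, with 31 fragments where CSA01 and CSA02 had 324 and 320. The log2 fold change of Cfb was 1.73 (SE 0.64, limma adjusted p = 0.0493) and 2.66 without CSA03 (limma adjusted p = 9.62e-05). The call was lost when any of the other 11 mice was left out, with adjusted p from 0.0590 to 0.167. Cfb shares 79.5% of its exonic bases with Gm20547, listed at 0 in all mice, and its level is uncertain for that reason.

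Factor D (Cfd, adipsin), the protease that cleaves factor B and a product of fat cells, stood at 249, 542 and 709 FPKM in CFA and at 210, 246 and 80.8 FPKM in CSA. The groups did not overlap, and the log2 fold change of -1.51 (SE 0.72, limma adjusted p = 0.120) did not pass the test. Its level varied most in CFS, at 531, 628 and 2262 FPKM, the highest value of any complement gene in any mouse. Cfd moved with Adipoq, another fat cell gene, at 8.70 to 15.6 times its level in all 12 mice. The summed level of 6 adipocyte markers was 218 to 690 FPKM in CFS, 73.2 to 278 in CSS, 98.8 to 285 in CFA and 60.2 to 99.0 in CSA, and 3 of the 6 were called lower in CSA against CFA. The part of fat in the Cfd values was not tested.

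No tested gene of the lectin pathway was called higher. Colec12, a membrane-bound scavenger collectin, stood at 57.0, 45.4 and 52.9 FPKM in CFA and at 27.6, 23.9 and 34.1 FPKM in CSA, without overlap. Its log2 fold change of -0.87 (SE 0.16, limma adjusted p = 0.00143) was short of the fold limit. Colec11, a soluble collectin of the blood, was lower and more variable, at 7.16, 2.38 and 2.24 FPKM in CFA and at 1.52, 1.31 and 0.604 FPKM in CSA. It was called lower at a log2 fold change of -1.57 (SE 0.55, limma adjusted p = 0.0417), and CFA71 was far above the others of its group. That call was lost without CFS68, CFS69, CFS70, CSS56, CFA71, CSA02 or CSA03, at values from -1.71 to -1.04.

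The ficolin Fcna stood at 5.95, 10.9 and 4.81 FPKM in CFA and at 3.44, 5.83 and 3.56 FPKM in CSA, which overlapped (log2 fold change -0.69, SE 0.30, limma adjusted p = 0.0928). The other ficolin, Fcnb, was listed at 0 in all 9 mice outside CSA, where 3 fragments would have given at most 0.130 FPKM, and had 2, 7 and 3 fragments in the CSA mice. Masp1, the protease of the pathway, was at 0.164 to 0.364 FPKM in the 12 mice. It stood at 0.173, 0.220 and 0.178 FPKM in CFA and at 0.361, 0.364 and 0.239 FPKM in CSA. The CSA mice were above the CFA mice and overlapped CFS and CSS. Neither Fcnb nor Masp1 was tested.

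C7 was the complement gene that fell most. It encodes the component that anchors the forming membrane attack complex to the membrane, and it lies on the minus strand of chromosome 15 at 4988762 to 5063740 (mm10). It stood at 272, 294 and 285 FPKM in CFS, at 223, 263 and 196 in CSS, at 105, 116 and 162 in CFA and at 18.4, 15.3 and 29.4 in CSA. None of the 4 groups overlapped any other, and they fell in that order. In CSA against CFA the group mean was 6.08 times lower, a log2 fold change of -2.63 (SE 0.24, limma adjusted p = 1.18e-05), and -2.90 without CSA03. Against CSS the log2 fold change was -3.47 (SE 0.24, limma adjusted p = 1.35e-06).

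In the floxed aorta, Ang II went with a C7 log2 fold change of -1.17 (SE 0.24, unadjusted p = 0.000486, limma adjusted p = 0.106), which did not pass, and under saline the genotype difference was -0.33 (SE 0.24, limma adjusted p = 0.992). The fibroblast markers, given here because fibroblasts make part of the complement of tissues, went separate ways in CSA against CFA. Their sum was 2204 to 2428 FPKM in CFA and 3559 to 4248 FPKM in CSA, of which Col1a1 made 2561 to 3262 FPKM, and 0 of 6 were called in either direction. Lum (log2 fold change 1.44, limma adjusted p = 0.000222) and Col1a1 (0.96, limma adjusted p = 0.000529) were higher without overlap, Dpt (-1.13, limma adjusted p = 0.000349) and Pi16 (-1.17, limma adjusted p = 0.00367) were lower without overlap, and Pdgfra and Dcn overlapped. Within each mouse, the ratio of C7 to the marker was lower in all 3 CSA mice than in all 3 CFA mice for 5 of the 6 markers, and overlapped for Pi16. For Pdgfra the ratio was 5.31 to 7.36 in CFA and 0.760 to 0.833 in CSA, and for Dpt it was 0.381 to 0.724 in CFA and 0.113 to 0.322 in CSA. The part of fibroblasts in the C7 values was not tested.

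The rest of the terminal pathway was low in the aorta. C6, which binds before C7, was at 0.465, 0.941 and 0.650 FPKM in CFA and at 1.25, 1.31 and 2.07 FPKM in CSA (log2 fold change 1.08, SE 0.60, limma adjusted p = 0.181). C8g, which encodes the gamma chain of C8, was at 2.06, 1.14 and 2.78 FPKM in CFA and at 2.01, 2.68 and 0 FPKM in CSA, where the 0 of CSA03 allows up to 0.131 FPKM. Its log2 fold change was -1.24 (SE 0.99, limma adjusted p = 0.348) and turned to 0.30 without CSA03. Hc, which encodes C5, was at most 0.233 FPKM in any mouse.

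**Figure D3:**
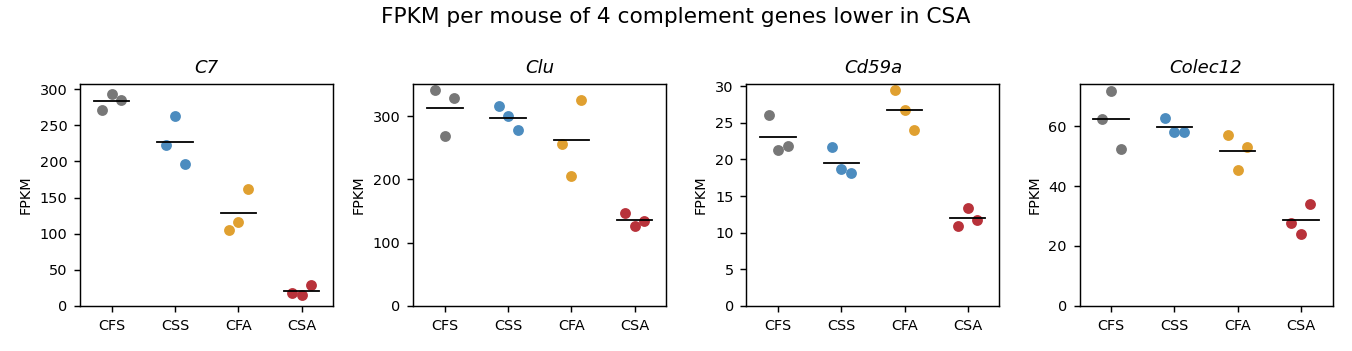
FPKM per mouse (points) and group means (lines) of C7, Clu, Cd59a and Colec12, on linear axes that start at 0, in the groups CFS, CSS, CFA and CSA. The 3 CSA mice are below all other mice for each of the 4 genes, with C7 at 15.3 to 29.4 FPKM in CSA and 105 to 162 FPKM in CFA.

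The soluble regulators went separate ways. Factor I (Cfi), the protease that inactivates C3b and C4b with the help of cofactors, was near the lower limit in 3 groups and rose in CSA, from 0.124, 0.127 and 0.297 FPKM in CFA to 2.75, 2.91 and 4.73 FPKM. These values rest on 6, 6 and 14 fragments in CFA and on 124, 137 and 161 in CSA. No CSA mouse overlapped any other mouse, and the log2 fold change was 3.67 (SE 0.46, limma adjusted p = 9.54e-05), which understates the ratio of the means, 18.9, since 0.1 was added to every value. Without 1 of the CSA mice Cfi no longer passed the filter, and no fit was made.

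Clusterin (Clu), which binds the forming attack complex and keeps it from membranes, stood at 256, 205 and 327 FPKM in CFA and at 147, 127 and 135 FPKM in CSA. The CSA mice were below all 9 other mice, with a log2 fold change of -0.92 (SE 0.17, limma adjusted p = 0.00134), short of the fold limit. Serping1, the C1 inhibitor, was at 281 ± 13.2 FPKM in CFA and 338 ± 44.9 FPKM in CSA (SD, n = 3), with a log2 change of 0.26 (SE 0.13, limma adjusted p = 0.131).

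Of the membrane-bound regulators, Cd59a, which blocks the last step of the attack complex, was lower in CSA, at 10.9, 13.3 and 11.7 FPKM beside 29.4, 26.7 and 24.0 FPKM in CFA. The CSA mice were below all 9 others, and the log2 fold change of -1.15 (SE 0.13, limma adjusted p = 6.18e-05) was short of the fold limit. Cd55, which speeds the decay of the convertases, was at 3.90 ± 0.45 FPKM in CFA and 6.42 ± 3.32 FPKM in CSA (SD, n = 3), where CSA03 was at 10.2 FPKM and the other two at 4.88 and 4.14 FPKM. Its log2 fold change was 0.60 (SE 0.33, limma adjusted p = 0.181), and 0.21 without CSA03.

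Cr1l (Crry), the widely expressed rodent regulator of C3 convertases, was at 9.25 ± 0.45 FPKM in CFA and 8.37 ± 2.53 FPKM in CSA (SD, n = 3), with a log2 change of -0.18 (SE 0.18, limma adjusted p = 0.440). Without CSA03, the CSA mouse with the highest level, it was -0.41 (limma adjusted p = 0.00513). Cd46, a cofactor of factor I with a narrow expression in mice, was at most 0.797 FPKM in any mouse and was not tested.

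The receptors for the anaphylatoxins C3a and C5a, which sit on myeloid cells, rose in all 3 cases. C3ar1 stood at 1.56, 1.53 and 1.67 FPKM in CFS, at 2.54, 1.94 and 1.89 in CSS, at 2.92, 5.40 and 2.16 in CFA and at 50.5, 49.8 and 80.9 in CSA. No CSA mouse came near another group, and the ratio of the means to CFA was 17.3. With 0.1 added to every value, its log2 fold change of 4.14 (SE 0.30, limma adjusted p = 2.87e-06) was the largest of the 28 tested genes. The ratio of the means was larger for Cfi, at 18.9. C5ar1 stood at 3.86, 8.01 and 4.07 FPKM in CFA and at 41.6, 44.3 and 35.8 FPKM in CSA, a log2 fold change of 2.98 (SE 0.25, limma adjusted p = 7.42e-06). C5ar2, its neighbor on chromosome 7 and a second receptor for C5a, stood at 0.915, 1.20 and 0.636 FPKM in CFA and at 6.49, 6.57 and 4.31 FPKM in CSA, a log2 fold change of 2.54 (SE 0.32, limma adjusted p = 0.000113). C5ar2 passed the filter only through CSA, so its higher value there was in part fixed by the filter.

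The other surface proteins of this group did not follow in CSA against CFA. Cd93, a glycoprotein of endothelium and myeloid cells once described as a C1q receptor, was at 24.5, 17.1 and 27.5 FPKM in CFA and at 26.6, 20.5 and 28.1 FPKM in CSA (log2 fold change 0.14, SE 0.41, limma adjusted p = 0.818). The sum of 6 endothelial markers was 196 to 416 FPKM in CFA and 110 to 157 FPKM in CSA, where Pecam1 (log2 fold change -1.84, limma adjusted p = 0.0215) and Vwf (-2.36, limma adjusted p = 0.0051) were called lower and the other 4 were not called. Among those 4, Kdr was higher without overlap, at 2.45, 3.67 and 5.36 FPKM in CFA and 8.69, 5.37 and 7.29 FPKM in CSA. Its log2 fold change of 0.92 (limma adjusted p = 0.0809) did not pass, and against CSS it was called higher (1.59, limma adjusted p = 0.00593). CFS69 was low for Cd93 at 7.27 FPKM, and low too for the endothelial sum, 91.2 FPKM beside 378 and 379 FPKM in the other CFS mice. Vsig4, the C3b receptor of tissue macrophages, was at 0.742, 2.22 and 0.636 FPKM in CFA and at 0.996, 1.27 and 0.704 FPKM in CSA, with overlap, and was not tested. All saline mice were below all Ang II mice for Vsig4, at 0.0365, 0.252 and 0.352 FPKM in CFS and 0.145, 0 and 0.0929 FPKM in CSS. C1qbp, a mostly mitochondrial protein that binds the heads of C1q in vitro, was at 11.0 ± 1.13 FPKM in CFA and 15.8 ± 3.05 FPKM in CSA (SD, n = 3), without overlap. The difference was 0.51 on the log2 scale (SE 0.15, limma adjusted p = 0.0191), short of the fold limit.

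**Figure D4:**
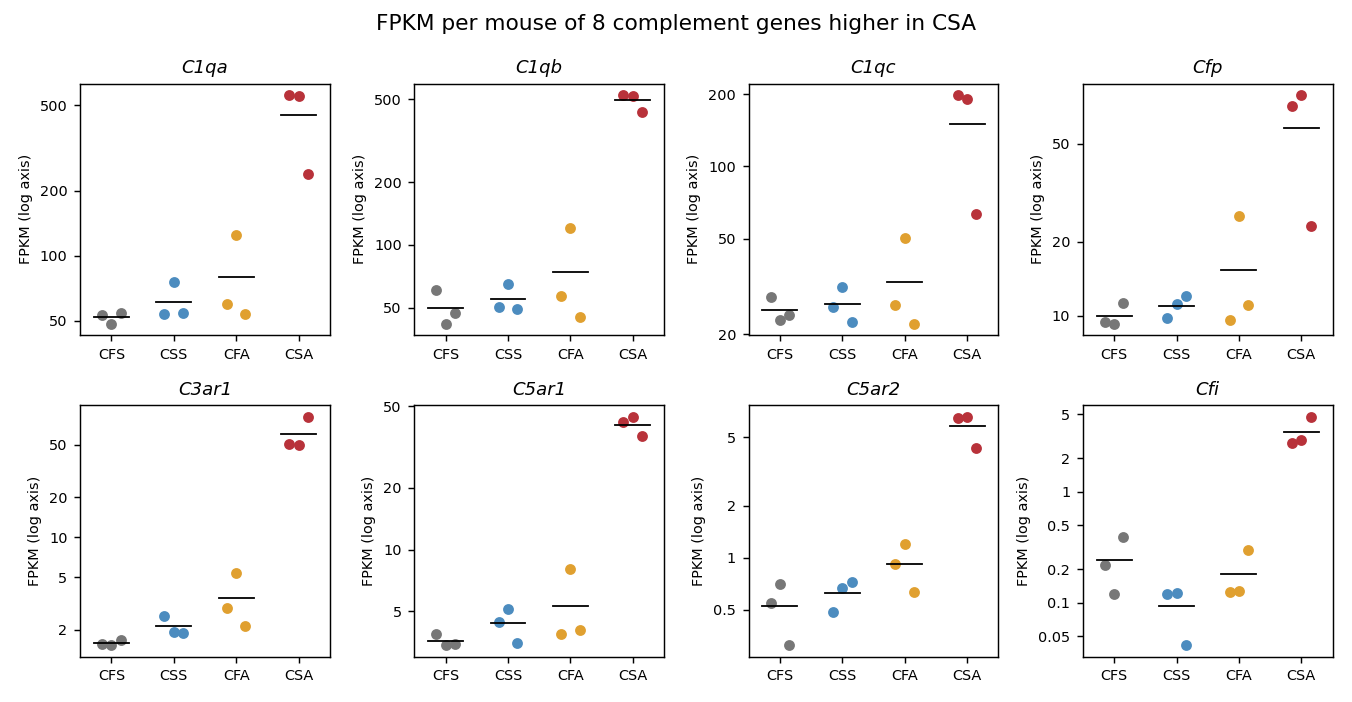
FPKM per mouse (points, log axes that differ between panels) and group means (lines) of C1qa, C1qb, C1qc, Cfp, C3ar1, C5ar1, C5ar2 and Cfi in the groups CFS, CSS, CFA and CSA. The CSA mice are above all others in each panel but that of Cfp, where CSA03 at 23.3 FPKM is below CFA72 at 25.5 FPKM.

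Leukocyte markers moved with these genes. The 6 macrophage markers summed to 236 to 453 FPKM in CFA and to 1383 to 1613 FPKM in CSA, and 5 of the 6 were called higher, all but Mertk. Mertk was lower without overlap, at 20.4, 31.6 and 23.1 FPKM in CFA and 11.2, 14.5 and 20.0 FPKM in CSA. Its log2 fold change of -0.73 (limma adjusted p = 0.0185) was short of the fold limit. Markers of resident macrophages, such as Lyve1 and Cd163, summed to 57.3 to 115 FPKM in CFA and to 51.0 to 105 FPKM in CSA, and 0 of 6 were called in either direction. Its members moved apart short of the fold limit: Lyve1 was lower (log2 fold change -0.87, limma adjusted p = 0.0367) and Mrc1 higher (0.91, limma adjusted p = 0.0337), at 13.2 to 26.0 FPKM in CFA and 25.2 to 52.1 FPKM in CSA. Cd163 was at -1.10 (limma adjusted p = 0.0535), which did not pass. The 6 neutrophil markers summed to 11.0 to 27.9 FPKM in CFA and to 508 to 556 FPKM in CSA, and all 5 tested ones were called higher, of which Cxcr2 and Retnlg passed the filter only through CSA, while the defining marker Ly6g was at or near 0 throughout, at most 0.680 FPKM. CFA72, the CFA mouse with the most C1q, C3ar1, C5ar1 and Cfp, also had the highest macrophage sum of its group.

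The ratio of C1qa to a macrophage marker within each mouse had a direction that differed with the marker. It overlapped between CSA and CFA for Cd68, Adgre1, Csf1r and Lyz2, was lower in CSA for Fcgr1 and was higher in CSA for Mertk. Against Cd68 it was 5.23 to 6.62 in CFA and 2.35 to 5.52 in CSA. Against Csf1r it was 2.20 to 3.02 in CFA, 4.53 and 4.99 in CSA01 and CSA02, and 2.37 in CSA03. Without CSA03 the ratios to Csf1r and to Lyz2 were higher in CSA without overlap, and those to Cd68 and Adgre1 still overlapped. Hepatocyte markers summed to 7.23 to 41.5 FPKM in CFA and to 4.14 to 6.24 FPKM in CSA. Of these, Alb was called lower in CSA, from 3.55 to 31.2 FPKM down to 0.161 to 0.315 FPKM (log2 fold change -4.56, SE 1.19, limma adjusted p = 0.0103), and most of the CSA sum was Ahsg at 3.82 to 5.47 FPKM. T cell markers summed to 0.392 to 1.55 FPKM in CFA and to 16.5 to 23.9 FPKM in CSA, and B cell markers to 1.22 to 2.34 FPKM and 4.44 to 7.72 FPKM. The 4 tested T cell markers and the 2 tested B cell markers passed the filter only through CSA, so their calls are not counted here. Mesothelial markers were at or near 0 in all mice, with sums of at most 1.03 FPKM. The part of these cell types in the complement values was not tested.

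Ang II in the CCN2-deleted aorta (CSA against CSS) raised the C1q chains and the receptors too. In this comparison 10 of the 28 genes (35.7%) were called higher, where 10.9% of all tested genes were, and 1 (3.57%) was called lower, where 9.36% were. The 10 were the C1q chains, C3, C4b, Cfp, Cfi, C3ar1, C5ar1 and C5ar2, and the 1 was C7. This comparison has the CSA mice in common with the one above, so the lists are not independent. Of the 24 genes that did not owe the filter to CSA, 8 were called higher. C4b was 2.09 higher on the log2 scale (SE 0.38, limma adjusted p = 0.00104), from 16.4, 28.4 and 14.1 FPKM in CSS. Cfb missed the call at 1.65 (SE 0.64, limma adjusted p = 0.0536) and passed it without CSA03 at 2.58 (limma adjusted p = 9.48e-05). Fcna differed in sign from its value against CFA, at 0.85 (SE 0.30, limma adjusted p = 0.0397), from 2.74, 2.40 and 1.74 FPKM in CSS.

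CCN2 deletion under saline (CSS against CFS) gave 0 calls among the 28 genes, beside 0.00681% of all tested genes higher and 0.00681% lower. By limma, 4 of the 28 had an unadjusted p under 0.05 (C3, C1s1, Cfd and Fcna), all with lower values in CSS, beside 3.22% of all tested genes lower at that threshold. The smallest adjusted p was the 0.614 of C3. Fcna stood at 4.17, 3.31 and 3.67 FPKM in CFS and did not overlap CSS (log2 fold change -0.69, SE 0.30, limma adjusted p = 0.775).

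Ang II in the floxed aorta (CFA against CFS) also gave 0 calls, beside 0.0204% of all tested genes higher and 0.00681% lower. By limma, 4 of the 28 had an unadjusted p under 0.05, beside 9.42% of all tested genes in either direction. C7 was lower, as given above, and C3ar1 (log2 fold change 0.99, SE 0.30, limma adjusted p = 0.270), Fcna (0.86, SE 0.30, limma adjusted p = 0.399) and C5ar2 (0.73, SE 0.32, limma adjusted p = 0.521) were higher.

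**Figure D5:**
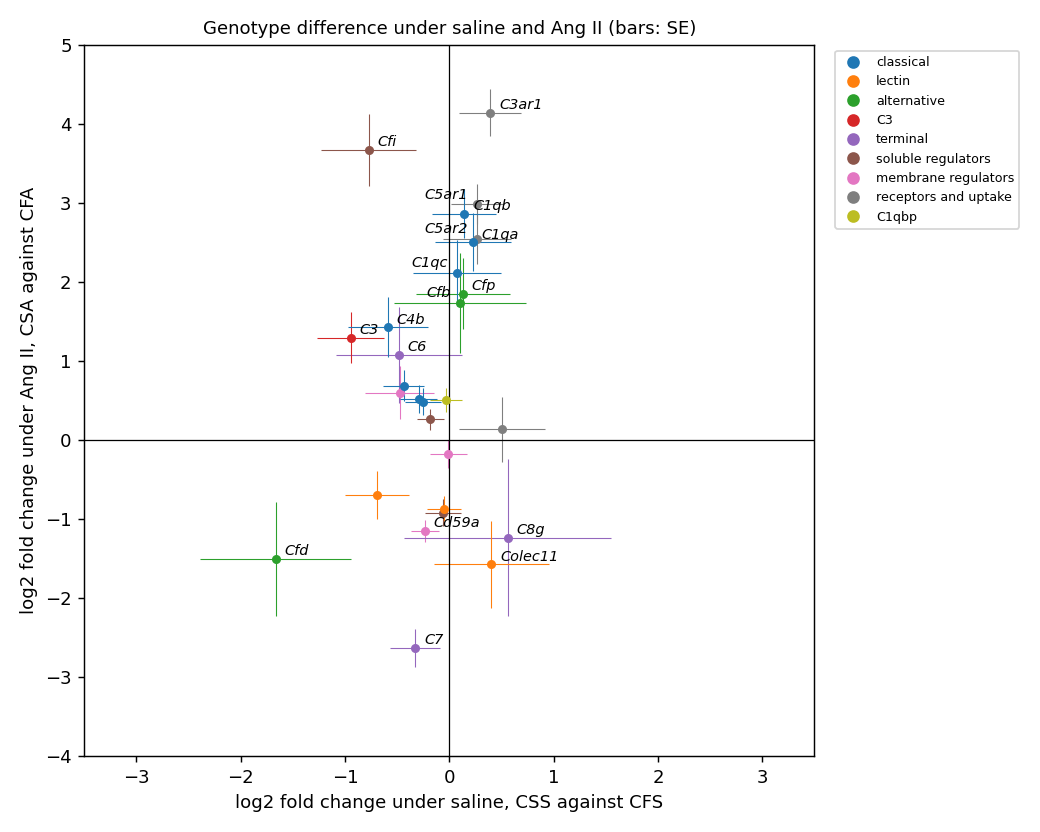
Log2 fold change of the CCN2SMCΔ against the CCN2fl/fl aorta under saline (horizontal) and under Ang II (vertical) for the 28 tested genes, colored by branch, with limma standard errors as bars and labels on genes that changed by over 1 under Ang II or over 0.8 under saline. C3 is at -0.94 under saline and 1.29 under Ang II, Cfi at -0.77 and 3.67, and C7 at -0.33 and -2.63.

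The interaction tests whether the genotype difference under Ang II differed from that under saline. It was called higher for 9 of the 28 genes (32.1%), beside 7.89% of all tested genes, and lower for 1 (3.57%), beside 7.31%. Of the 24 genes that did not owe the filter to CSA, 7 were called higher and 1 lower. Of the 28, the largest was that of Cfi, which passed the filter only through CSA, at 4.44 (SE 0.65, limma adjusted p = 0.000648), followed by C3ar1 at 3.75 (SE 0.42, limma adjusted p = 0.000162). C3 had an interaction of 2.24 (SE 0.46, limma adjusted p = 0.00451), larger than its difference under Ang II since its saline difference had the opposite sign. C7 had -2.30 (SE 0.34, limma adjusted p = 0.000683). With no fold limit, 12 of the 28 genes were higher in the interaction at an adjusted p under 0.05, beside 12.8% of all tested genes. All 7 classical genes were among them, and C1qa, C1qb, C1qc and C4b also passed the fold limit. When single mice were left out, C1ra was over 0.05 in 9 of the 12 fits (up to 0.112) and C2 in 7 (up to 0.0851). The call of C1qc was lost when CFS68, CSS54, CSS56, CFA71, CFA74, CSA01 or CSA02 was left out. Properdin missed the call at 1.72 (SE 0.63, limma adjusted p = 0.0693) and passed it without CSA03 at 2.28 (limma adjusted p = 0.00364). Cfb, which passed the filter only through CSA, also missed it at 1.63 (SE 0.90, limma adjusted p = 0.215). Without CSA03 Cfb passed at 2.56 (limma adjusted p = 0.00144).

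A list of 29 other complement genes gave the rest of the cascade. Only 8 of them passed the filter. In CSA against CFA 4 of the 8 were called higher and 0 lower, where 8.95% and 8.27% of all tested genes were. Of these 4, Itgam, Itgax and Ptx3 passed it only through CSA, so that their higher values there were in part fixed by the filter, and 1 of the 5 others, Itgb2, was called higher. Itgam and Itgax, the alpha chains of the complement receptors CR3 and CR4, rose from 1.01, 2.87 and 0.967 FPKM to 15.7, 16.7 and 24.2 FPKM and from 0.593, 2.97 and 0.943 FPKM to 19.9, 15.9 and 14.0 FPKM. Their log2 fold changes were 3.61 (SE 0.39, limma adjusted p = 3.34e-05) and 3.66 (SE 0.47, limma adjusted p = 0.000116). Itgb2, the beta chain common to both receptors, rose by 3.20 (SE 0.31, limma adjusted p = 1.90e-05). Ptx3, a soluble pattern recognition protein that binds C1q, rose by 2.76 (SE 0.41, limma adjusted p = 0.000284).

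C1rl, Cd59b and Vtn were tested and not called in this comparison. Genes made mainly by the liver were near 0: C8a, C8b, C9, Mbl1, Mbl2, Masp2 and C4bp were each at most 0.53 FPKM in any mouse.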

How the data were processed

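RNA-Seq of abdominal aorta was analysed for 12 mice in 4 groups of 3. The authors deposited 1 table of FPKM per gene and mouse. Per the labels, the tools were HISAT2 2.0.5, StringTie 1.3.3b and featureCounts 1.5.0-p3 on mm10, and the roles of the tools and the strand setting are not given in the sources used here. Gene symbols came from the reference for 54409 of 55092 rows. Fragments recovered from the steps of the FPKM values were whole within 0.02 for 97.8% to 98.4% of values under 100 fragments. They served for depth, for the fragments behind low values and for the limits of values listed at 0, and no test was run on them, since each column also carries a scaling between libraries. Values were analysed as log2(FPKM + 0.1), a scale on which changes of low genes are understated, with limma 3.58.1 in R 4.3.3 (lmFit with 1 coefficient per group over all 12 libraries, eBayes with trend and robust settings), for rows of at least 1 FPKM in at least 3 libraries, with Benjamini-Hochberg adjustment within each comparison. The groups came from the labels, and mouse numbers differ between groups, so there was nothing to pair. On simulated data for CSA against CFA, 165 of 179 tested genes changed 8-fold were recovered, with 5 false calls among 13326 genes. The simulated noise was independent between genes, and no simulated library stood apart as CSA03 did. These counts therefore give no rate of false calls for the real data.

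The members, the list of other complement genes, the markers and the motifs were chosen with earlier results of these data known. The text names all members, and of the other complement genes those called with the largest change in CSA against CFA, up to 6, of which 4 were called. Alternatives tried were adding 1 in place of 0.1, no filter, a mean of at least 5 FPKM, median-of-ratios and column-sum scaling, plain eBayes, array weights, a fit of the compared groups alone, no fold limit and leaving out each mouse. Counting limits of 3 fragments cover counting error only. One result on the other complement genes is not reported here.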

Additional observations from a re-analysis of the deposited data

Results flagged for a closer look

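These results differed between saline and Ang II by a test of the difference itself, the genotype by Ang II interaction in limma at an adjusted p under 0.05 with an absolute log2 value above 1.5. Among the complement members the interaction was 2.28 for C1qa, 2.72 for C1qb, 2.04 for C1qc, 2.02 for C4b and 2.24 for C3. It was 4.44 for Cfi, 3.75 for C3ar1, 2.72 for C5ar1 and 2.28 for C5ar2. C7 had the single negative value among them, -2.3. Among the other complement genes it was 3.76 for Itgam, 4.13 for Itgax, 3.06 for Itgb2 and 2.01 for Ptx3. That of Ptx3 was not called without CFS68, CSS54, CSS56, CFA71, CFA74, CSA01 or CSA02, at values from 1.73 to 2.10. Cfi, C5ar2, Itgam, Itgax and Ptx3 passed the filter only through CSA, so their values were in part fixed by it. No test of single outlying values was run on the groups of 3 mice.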

How the results depend on the processing

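The higher calls in CSA against CFA numbered 9, and 15 without a fold limit. They were 6 to 10 under the other 8 alternatives that kept all mice and 7 to 9 when single mice were left out. Of these calls Cfb was lost in 15 of its 19 alternatives (11 of them single mice left out) and Cfp in 1, and C4b was added in 4. The lower calls there, C7 and Colec11, numbered 2. They were 5 without a fold limit and 1 with a pseudocount of 1, with no filter, with a mean of at least 5 FPKM, on column sums and with only the compared groups fitted, and 1 to 2 when single mice were left out. The lower calls in CSA against CSS were 4 without a fold limit, and those of the interaction were 4 without a fold limit and 2 with array weights. C7 stayed called lower in CSA against CFA under all 20 alternatives that were run for it. Of the 28 tested members and 4 other complement genes followed in CSA against CFA, 32 genes in all, 26 kept direction and call under those alternatives with the fold limit that were run for them, 3 (Cfb, Cfp and Colec11) lost the call under at least 1 alternative, 1 (C4b) gained it and 2 changed sign, all of them values that were not called. Of the 26, Cfi was run under 16 of the 20 alternatives, none of them without a CSA mouse. Without the fold limit 9 more of the 32 were called, 6 higher (C1ra, C1s1, C2, C3, C4b and C1qbp) and 3 lower (Cd59a, Colec12 and Clu). C8g was 0.21 with array weights and 0.30 without CSA03, with a range of -2.10 to 0.30 over single mice left out, and Cd93 was -0.065 with array weights and -0.063 without CFA72, with a range of -0.063 to 0.28. Scaling to column sums moved the median of all genes by 0.08. No paired analysis was possible because the mouse numbers differ between the groups. Genes under 1 FPKM rest on few fragments, and each group has 3 mice.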
